A study of Mus musculus with 24 samples.

Results

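The transcripts of the cytosolic HSP90 chaperones and their main co-chaperones were measured by RNA sequencing in the quadriceps femoris muscle of mice that received a heat shock (HS) or the HSP90 inhibitor HSP990. The 10 genes were chosen by symbol and not by a cut on their values, although earlier results of these data were known. They are Hsp90aa1 and Hsp90ab1, which encode the inducible and the constitutive cytosolic HSP90, and 8 co-chaperone genes, Stip1, Ahsa1, Cdc37, Ptges3, Fkbp4, Chordc1, St13 and Ppid. All 10 were among the 18669 genes of the count table and among the 13754 genes with enough counts to be tested.

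HSP90 is a dimeric ATP-dependent chaperone that finishes the folding of kinases, steroid receptors and other client proteins. Clients arrive from HSP70 through the adaptor encoded by Stip1 (HOP), which holds both chaperones at once, and kinases arrive through CDC37. The ATPase cycle is sped up by the activator AHA1 (Ahsa1) and slowed in the client-bound state by p23 (Ptges3), and the immunophilins FKBP52 (Fkbp4) and cyclophilin 40 (Ppid) join late complexes. HSP90 also holds the heat shock transcription factor HSF1 in check, so that heat or an inhibitor of the HSP90 ATP pocket releases HSF1, which binds arrays of the pentamer nGAAn in the promoters of chaperone genes. In skeletal muscle the system is known for folding myosin together with the muscle co-chaperone UNC45B.

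The study had 24 mice in 12 groups of 2, all on a CBA x C57BL/6 F1 background, and muscle was taken 4 h after treatment. In the HS experiment, anaesthetised mice were wrapped to the neck in a heating pad and held at 41.5 °C for 15 min (HS), or at 36.9 °C for 21 min (control). In the HSP990 experiment, mice were given 12 mg/kg NVP-HSP990 in methyl cellulose and saline by gavage (HSP990), or saline (vehicle). The labels name saline alone as the vehicle, so methyl cellulose and the drug cannot be told apart. Each treatment was given to wild type mice, to R6/2 mice, which carry a transgene of exon 1 of mutant human HTT under the human HTT promoter and model Huntington's disease, and to Hsf1-/- mice, which are homozygous knockouts of the Hsf1 gene. Wild type and R6/2 mice were 12 weeks old in both experiments, whereas Hsf1-/- mice were 10 weeks old in the HS and 8 weeks old in the HSP990 experiment. With 2 mice a group, p-values rest on a spread pooled over all 12 groups. In a bulk tissue, fewer cells of a type and less RNA per cell cannot be told apart.

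The libraries held 22450177 to 46599238 counts. Gene levels are given as CPM, counts relative to the library total after trimmed mean (TMM) scaling. Hsf1 itself was at 52.9 to 68.5 CPM in the 8 wild type mice, 45.3 to 53.7 CPM in the 8 R6/2 mice and 21.1 to 29.0 CPM in the 8 Hsf1-/- mice. Relative to the plain library total it was at 47.3 to 58.0, 56.2 to 71.7 and 20.1 to 25.3 CPM, so wild type and R6/2 mice changed order with the scaling. The libraries labelled Hsf1-/- were the lowest under both but not at 0, and which part of the gene these reads cover was not analysed here. Marker sums are given relative to the plain library total. Markers of muscle fibres were abundant in every library, but their summed level was 78242 to 138654 CPM in R6/2 mice and 211968 to 260887 CPM in the other mice. The 20 most abundant genes took 14.7% to 21.9% of counts in R6/2 mice and 32.7% to 40.1% in the others, which moved the TMM scaling factors to between 1.19 and 1.40 in R6/2 mice. Summed macrophage markers were 45.7 to 91.4 CPM in R6/2 mice, against 29.0 to 62.8 CPM in wild type mice. Transcripts of 4 Y-linked genes summed to at most 0.119 CPM in wild type and R6/2 mice of the HS experiment and to 138 CPM or more in every other mouse, so control Hsf1-/- mice differed from control wild type mice in these transcripts as well as in age. Their part in the results below was not tested.

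In muscle of control mice, Hsp90ab1 made up nearly all cytosolic HSP90 transcript. Per kb of transcript, control wild type mice held 597 ± 38 CPM of Hsp90ab1 and 3.28 ± 0.19 CPM of Hsp90aa1 (SD, n = 2), and Hsp90aa1 was 0.546% ± 0.002 of their sum. On the same scale Fkbp4 stood at 105 CPM per kb, Ahsa1 at 101, Cdc37 at 59.6, Stip1 at 55.4, Ppid at 27.5, St13 at 25.6, Chordc1 at 24.0 and Ptges3 at 9.71. Each co-chaperone transcript was therefore present at a lower level than Hsp90ab1 and at a higher level than Hsp90aa1. Per length comparisons assume the annotated main transcript. Hsp90aa1 (gene 15519, chr12:111928815-111940938, minus strand, mm9) has 2 near-identical copies in the genome, on chromosomes 11 and 3, and Ptges3 (gene 56351, chr10:127496010-127514328, plus strand) has 1 on chromosome 6 and overlaps Baz2a on the same strand. Reads could have been split with these copies, so the absolute levels of Hsp90aa1 and Ptges3 are uncertain. No near-identical copy was found for the other 8 genes.

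**Figure D1:**
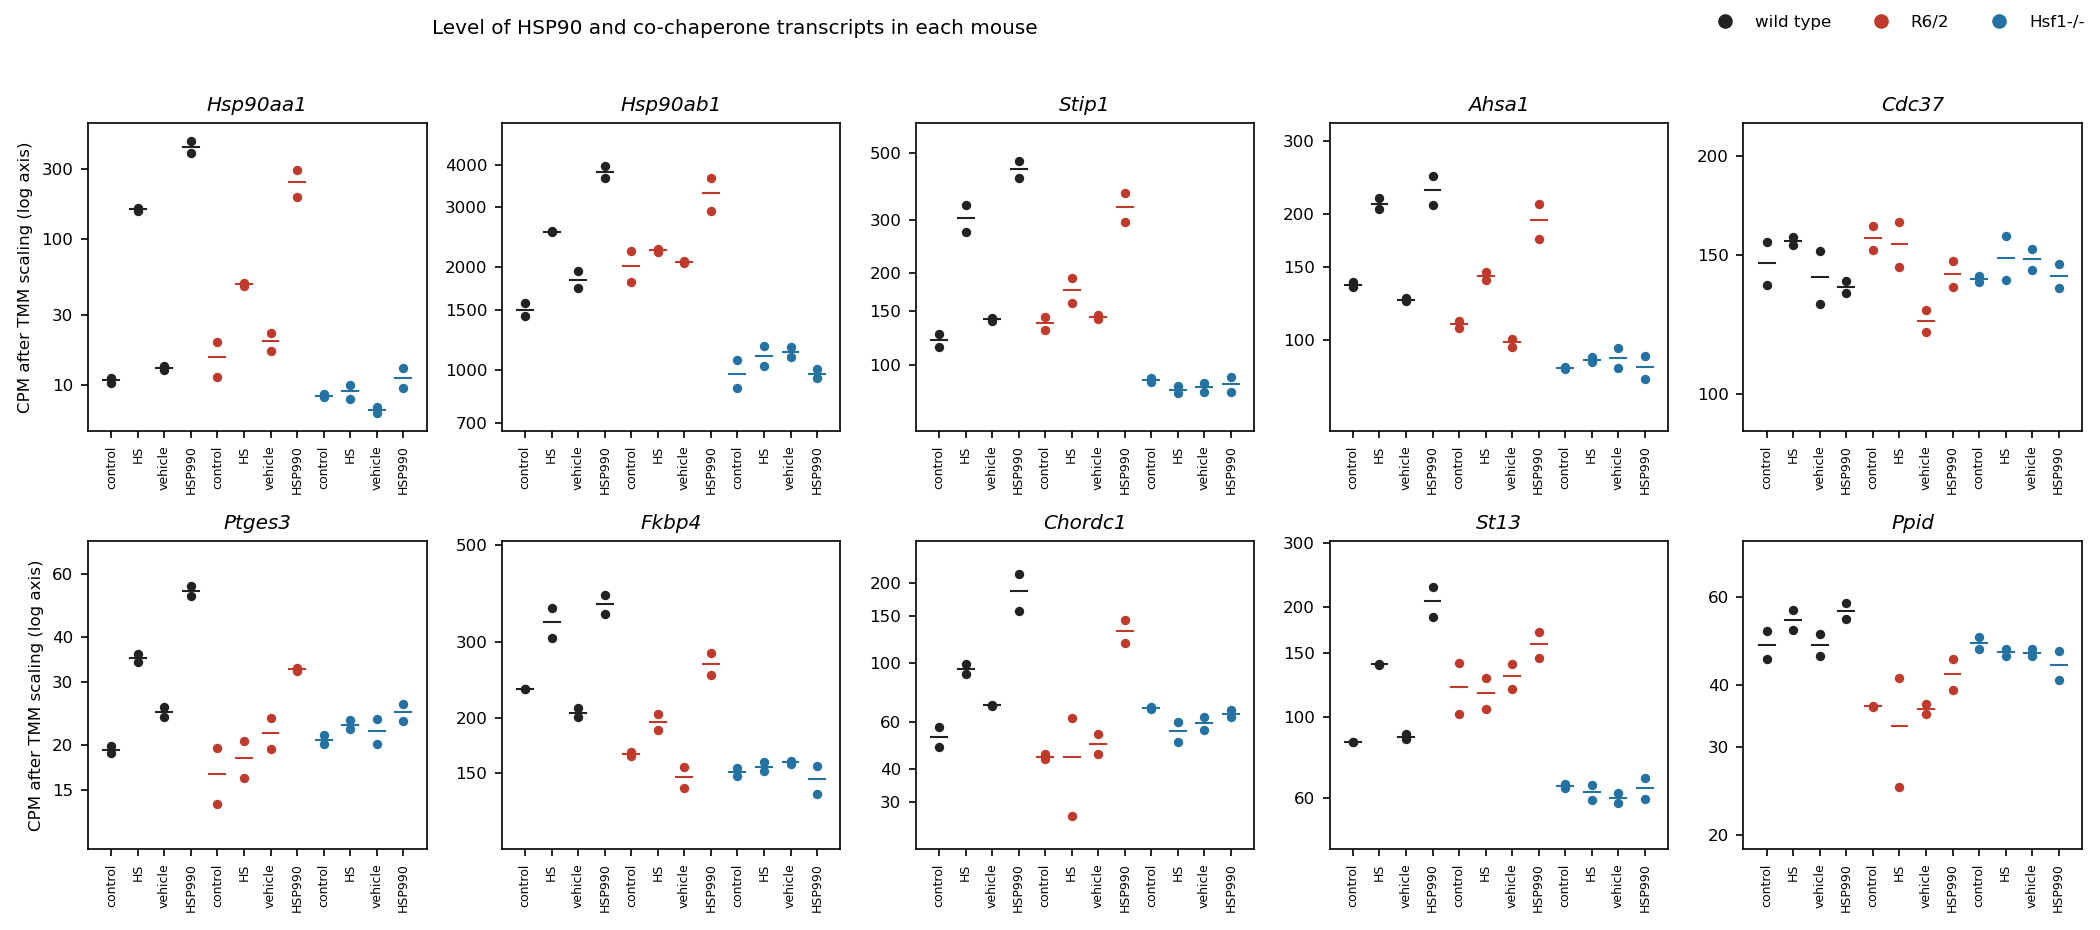
CPM after TMM scaling (log axis) of the 10 transcripts in each of the 24 mice, by genotype (colour) and treatment (x axis). Points are mice and lines are group means. Hsp90aa1 spanned 6.45 to 464 CPM, whereas Cdc37 stayed between 119.8 and 165 CPM in every mouse.

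Heat shock raised most of these transcripts in wild type mice. Of the 10, 7 were higher at an adjusted p below 0.05 and none was lower, where 2.06% of all 13754 genes passed in either direction and 1.59% were higher. The median log2 fold change of the 10 was 0.73, beside -0.01 over all genes tested. All adjusted p-values come from the quasi-likelihood F test of edgeR, adjusted over the genes tested by the method of Benjamini and Hochberg.

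The inducible paralog moved most. Hsp90aa1 was at 10.3 and 11.2 CPM in the control mice and at 156 and 164 CPM after HS, a 14.8-fold rise (log2 fold change 3.89 ± 0.26 SE, adjusted p = 3.96e-07). Hsp90ab1 (gene 15516, chr17:45704724-45710220, minus strand) went from 1437 and 1571 CPM to 2537 and 2556 CPM, a 1.69-fold rise (log2 fold change 0.76 ± 0.14, adjusted p = 0.00705). The groups did not overlap for either gene. The relative change was larger for Hsp90aa1, but the absolute one was larger for Hsp90ab1. Per kb of transcript, Hsp90aa1 rose from 3.28 to 48.7 CPM and Hsp90ab1 from 597 to 1011 CPM. Hsp90aa1 made up 4.59% ± 0.13 of the HSP90 pair after HS.

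Among the genes that link HSP90 to HSP70, Stip1 (gene 20867, chr19:7095186-7114516, minus strand) rose from 115 and 126 CPM to 335 and 274 CPM (log2 fold change 1.34 ± 0.13, adjusted p = 2.56e-05). St13, which encodes the HSP70-interacting protein HIP (gene 70356, chr15:81194099-81230507, minus strand), rose from 85.7 and 85.4 CPM to 139.6 and 139.1 CPM (0.70 ± 0.15, adjusted p = 0.0187). For both genes the 2 heated mice lay above the 2 control mice. Ahsa1, the ATPase activator (gene 217737, chr12:88607696-88614947, plus strand), rose from 134 and 138 CPM to 218 and 206 CPM (0.64 ± 0.11, adjusted p = 0.00466). Ptges3, the p23 gene, rose from 19.0 and 19.9 CPM to 35.8 and 34.0 CPM (0.85 ± 0.16, adjusted p = 0.00929). The immunophilin gene Fkbp4 (gene 14228, chr6:128379753-128388695, minus strand) rose from 232.9 and 233.1 CPM to 359 and 305 CPM (0.51 ± 0.11, adjusted p = 0.0181). The remaining 3 did not pass. Chordc1 encodes an HSP90-binding protein with cysteine and histidine-rich domains (gene 66917, chr9:18096711-18118444, plus strand). It was at 57.4 and 48.3 CPM in control and 99.2 and 91.1 CPM in heated mice (0.85 ± 0.26, adjusted p = 0.116), a separation of the groups with a wider error than for the other co-chaperone genes. It did pass with DESeq2 (adjusted p = 0.0317) and when the 2 groups were fitted alone with edgeR (adjusted p = 0.00657). Cdc37, the kinase recruiter (gene 12539, chr9:20942985-20954350, minus strand), had a log2 fold change of 0.09 ± 0.11. Ppid, the cyclophilin gene (gene 67738, chr3:79395264-79407572, plus strand), had one of 0.17 ± 0.17. In all, 9 of the 10 (all but Cdc37) had both heated mice above both control mice, where 23% of all genes did. The calls of Hsp90aa1 and Stip1 held with each of the 4 mice left out in turn. Those of Ptges3 and St13 were lost whichever of the 4 was left out. Hsp90ab1, Ahsa1 and Fkbp4 lost theirs without either control mouse, Hsp90ab1 also without HS replicate 2 and Fkbp4 also without HS replicate 1, and between 2 and 4 members then passed.

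**Figure D2:**
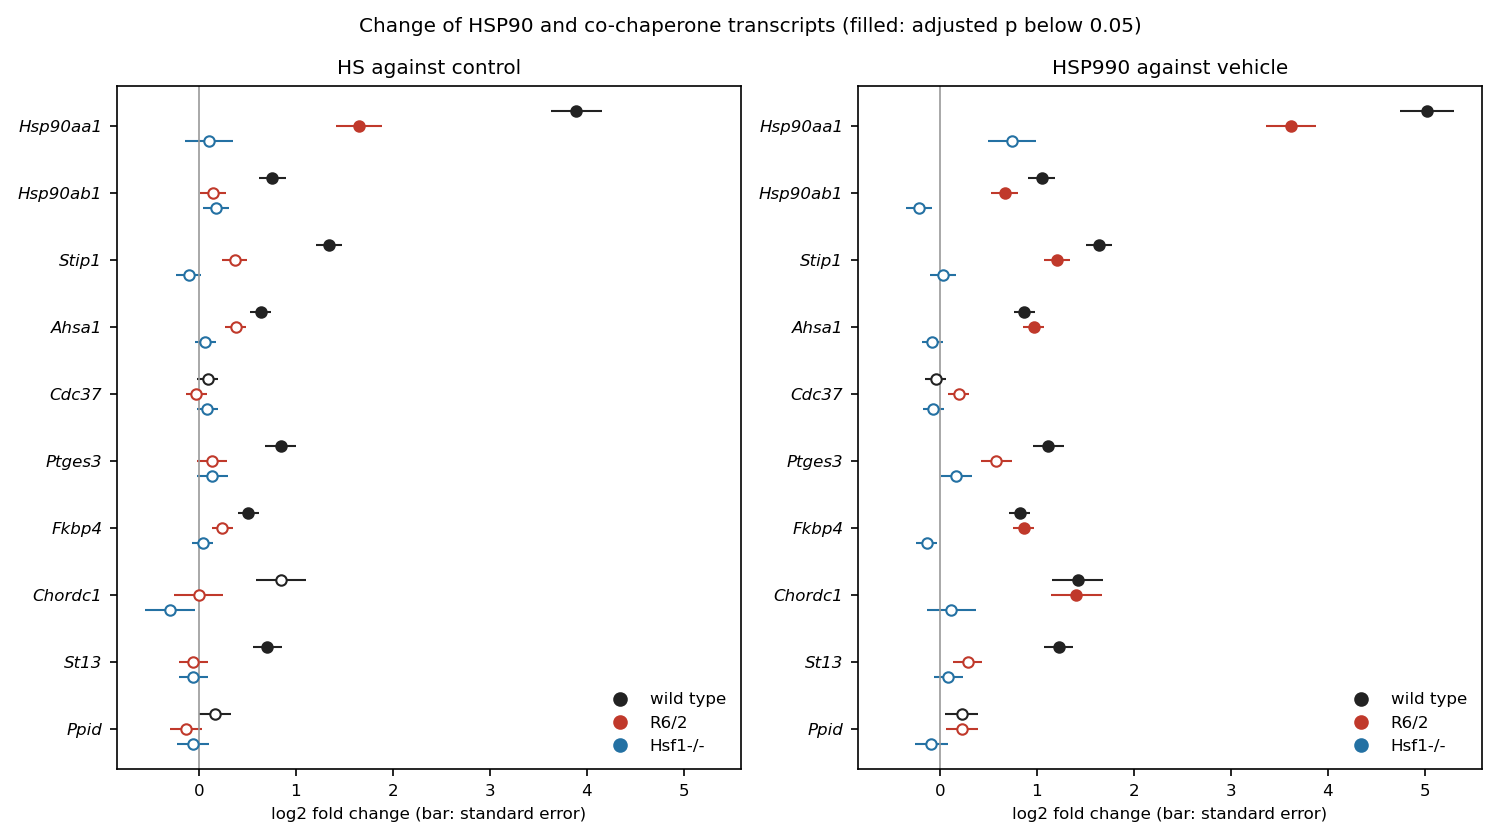
log2 fold change (x axis) of the 10 transcripts after HS (left) and HSP990 (right) in wild type (black), R6/2 (red) and Hsf1-/- mice (blue), with standard errors. Filled points have an adjusted p below 0.05. Calls number 7, 1 and 0 after HS and 8, 6 and 0 after HSP990.

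HSP990 also raised most of the 10 transcripts. In wild type mice 8 of the 10 were higher and none was lower (1.85% of all genes passed in either direction and 1.45% were higher), and the median log2 fold change was 1.08, beside -0.0011 over all genes. The 8 were the 7 called after HS and Chordc1, whose call after HS depended on the tool (above). The 2 that did not pass were again Cdc37 (-0.04 ± 0.11) and Ppid (0.23 ± 0.17).

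Hsp90aa1 went from 13.4 and 12.7 CPM with vehicle to 464 and 386 CPM with HSP990, a 32.5-fold rise (log2 fold change 5.02 ± 0.28, adjusted p = 9.78e-09). Hsp90ab1 went from 1947 and 1736 CPM to 3972 and 3654 CPM (1.05 ± 0.14, adjusted p = 0.000324). With the inhibitor on board, Hsp90aa1 reached 7.87% ± 0.52 of the pair per length, and the summed level of the pair rose from 735 ± 59 to 1643 ± 106 CPM per kb. Stip1 rose from 139 and 143 CPM to 469.6 and 412 CPM (1.64 ± 0.13, adjusted p = 1.3e-06), and St13 from 89.6 and 87.2 CPM to 227 and 187 CPM (1.23 ± 0.15, adjusted p = 0.000151). Chordc1 rose from 69.0 and 69.6 CPM to 215 and 157 CPM (1.42 ± 0.26, adjusted p = 0.00768). Treated and vehicle mice did not overlap for any of these 5 genes, and the 2 treated mice differed most for Chordc1. Ptges3 rose from 23.9 and 25.6 CPM to 55.5 and 52.1 CPM (1.12 ± 0.16, adjusted p = 0.000705). Ahsa1 rose from 124 and 126 CPM to 247 and 210.5 CPM (0.87 ± 0.11, adjusted p = 0.000191). Fkbp4 rose from 211 and 201 CPM to 383 and 347 CPM (0.83 ± 0.11, adjusted p = 0.000314). As after HS, 9 of the 10 had both treated mice above both vehicle mice, where 24.3% of all genes did, and Cdc37 was the exception. All but Chordc1 kept their call with each mouse left out. Chordc1 lost it without either vehicle mouse or without replicate 1 of the HSP990 mice (adjusted p = 0.125 at most).

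The summed level of the 8 co-chaperone transcripts gives the size of the change in one number. It was 832 and 852 CPM in control, 1402 and 1255 CPM in heated, 854 and 833 CPM in vehicle and 1790 and 1559.8 CPM in HSP990 mice of the wild type. The treated mice thus lay apart from the control or vehicle mice in both experiments.

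The RefSeq promoter table (GRCm38.p6) held 6 of the 10 genes, namely Stip1, Ahsa1, Cdc37, Ptges3, Fkbp4 and Chordc1. The promoters were searched from 250 bases before to 50 bases after the start for the short forms GAANNTTC and TTCNNGAA, each of which is its own reverse complement, and for HSF1-type arrays of 3 units, in which GAANNTTC is followed by NNGAA or TTCNNGAA by NNTTC. These 2 arrays are reverse complements of one another, and each holds both short forms. Chordc1 was the 1 gene of the 6 with a full array, a feature of 198 of 32851 promoters (0.603%). A short form was found in Chordc1, Fkbp4 and Cdc37, and in 15.056% of all promoters. The stretches below are shown because they set the array of Chordc1 beside single short forms and beside promoters in which no form was found, and they are given 5′ to 3′ on the gene's strand, with the matches in capitals and positions in mm9, where each was found by exact match.
Chordc1, chr9:18096651-18096730, plus strand, -60 to 20: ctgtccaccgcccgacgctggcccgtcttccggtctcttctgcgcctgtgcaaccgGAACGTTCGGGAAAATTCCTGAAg
Fkbp4, chr6:128388785-128388854, minus strand, -180 to -111: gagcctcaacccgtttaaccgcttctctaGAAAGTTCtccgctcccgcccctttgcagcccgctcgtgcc
Cdc37, chr9:20954509-20954578, minus strand, -200 to -131: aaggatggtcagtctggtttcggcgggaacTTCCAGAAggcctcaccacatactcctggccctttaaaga
Stip1, chr19:7114517-7114616, minus strand, -100 to -1: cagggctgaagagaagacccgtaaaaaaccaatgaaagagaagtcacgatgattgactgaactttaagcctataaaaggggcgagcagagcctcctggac
Ahsa1, chr12:88607578-88607677, plus strand, -100 to -1: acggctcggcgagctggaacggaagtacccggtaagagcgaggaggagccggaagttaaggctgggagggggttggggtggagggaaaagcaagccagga
The array of Chordc1 ran over the start site, from -4 to 19, and a further short form lay at 34 to 41. The single form of Fkbp4 lay at -151 to -144 and that of Cdc37 at -170 to -163. Fkbp4 rose and Cdc37 had a log2 fold change near 0 after both treatments in wild type mice, although both hold 1 short form. Stip1, Ahsa1 and Ptges3 had no match, which says only that these letters are not in this window.

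In heated R6/2 mice, 4 of the 10 had an unadjusted p below 0.05 by edgeR. Counts of members or of other listed genes at an unadjusted p, here and below, stand without the share of all genes. Nothing is concluded from them. Only Hsp90aa1 passed after adjustment. It was at 19.8 and 11.2 CPM in control and at 50.0 and 47.7 CPM in heated R6/2 mice, a 3.14-fold rise (log2 fold change 1.65 ± 0.24, adjusted p = 0.0101). The call stood among 6 genes in the whole table (0.0436%), a count that was 127 with DESeq2 and 500 without HS replicate 2. The call of Hsp90aa1 was lost without replicate 2 of the control mice or replicate 1 of the HS mice (adjusted p = 0.137 at most). Stip1 was at 143 and 130.5 CPM in control and 159.9 and 194 CPM in heated mice (0.37 ± 0.13, adjusted p = 0.396). Ahsa1 was at 107 and 111 CPM in control and 145 and 139 CPM in heated mice (0.38 ± 0.11, adjusted p = 0.24). The heated mice lay above the control mice for Hsp90aa1, Stip1, Ahsa1 and Fkbp4 (0.24 ± 0.11), where 15.1% of all genes did so. Hsp90ab1 (0.15 ± 0.14), Ptges3 (0.14 ± 0.16), St13 (-0.06 ± 0.15), Chordc1 (-0.0011 ± 0.26), Cdc37 (-0.02 ± 0.11) and Ppid (-0.13 ± 0.17) had overlapping groups. The 2 heated R6/2 mice stood apart from each other for Chordc1 (26.7 and 62.1 CPM) and Ppid (25.0 and 41.3 CPM). Marker sums of several other cell types differed between the same 2 mice in the other direction. They were 719 and 448 CPM for endothelial cells, 1059 and 762 CPM for fibroblasts, 161 and 118 CPM for adipocytes, 91.4 and 45.7 CPM for macrophages, 14.5 and 3.32 CPM for red blood cells and 7.91 and 1.71 CPM for neutrophils. Muscle fibre markers (111972 and 120093 CPM) and Schwann cell markers (65.3 and 79.0 CPM) were higher in the second mouse, and the part of these cells was not tested. Without the second of these mice, 3 members passed, as Chordc1 and Ppid were then called lower, while the share of all genes called went to 3.64%.

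The size of the heat response differed between R6/2 and wild type mice for Hsp90aa1. The R6/2 change was 42.5% of the wild type one on the log2 scale, and the difference of the changes was -2.24 ± 0.34 (adjusted p = 0.00942). This was 1 member of 10, and 0.0727% of all genes passed. For Stip1 the difference was -0.97 ± 0.18 (adjusted p = 0.0701), and for the other 8 it ranged from -0.85 to -0.12 with no call. All 10 differences were negative, with a median of -0.66 beside 0.02 over all genes. The Hsp90aa1 call was lost without replicate 1 of the R6/2 control mice, replicate 1 of the R6/2 HS mice or either wild type control mouse (adjusted p = 0.0913 at most), and when the 4 groups were fitted alone (adjusted p = 0.099). Without R6/2 HS replicate 2, Stip1 and Chordc1 passed as well, which made 3 members, while the genes called in the whole table went from 10 to 90 (0.654%).

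In the main fit, more of the 10 were called after HSP990 than after heat in R6/2 mice. After HSP990, 6 of the 10 were higher and none was lower (1.43% of all genes passed in either direction and 0.473% were higher). Hsp90aa1 went from 22.8 and 17.1 CPM to 194 and 298 CPM, a 12.3-fold rise (3.62 ± 0.26, adjusted p = 1.28e-06). Hsp90ab1 went from 2057 and 2088 CPM to 2934 and 3664 CPM (0.67 ± 0.14, adjusted p = 0.0191). Stip1 went from 146 and 141 CPM to 296 and 368 CPM (1.21 ± 0.13, adjusted p = 0.000106). All 3 had treated mice above vehicle mice, with the 2 treated mice further apart than the 2 vehicle mice. Ahsa1 went from 101 and 96.7 CPM to 175 and 212 CPM (0.97 ± 0.11, adjusted p = 0.00014). Fkbp4 went from 154 and 138 CPM to 282 and 252 CPM (0.87 ± 0.11, adjusted p = 0.000287). Chordc1 went from 54.0 and 45.4 CPM to 119 and 145 CPM (1.41 ± 0.26, adjusted p = 0.00956). The log2 change of Ahsa1, Fkbp4 and Chordc1 in R6/2 mice was 111%, 105% and 99.1% of that in wild type mice. Ptges3 was at 23.9 and 19.5 CPM with vehicle and 32.2 and 32.8 CPM with HSP990 (0.59 ± 0.16, adjusted p = 0.0892). St13 was at 139 and 119 CPM with vehicle and 145 and 171 CPM with HSP990 (0.29 ± 0.15, adjusted p = 0.583). In all 10 genes both treated mice lay above both vehicle mice, where 21.2% of all genes did. Hsp90ab1 and Chordc1 lost their calls when single mice were left out, both of them without vehicle replicate 2 or HSP990 replicate 2, and Hsp90ab1 also without vehicle replicate 1. Only Hsp90aa1 was called when the 2 groups were fitted alone.

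No difference between the HSP990 responses of R6/2 and wild type mice passed for any gene of the table (0%). Without adjustment 981 genes had p below 0.05, and DESeq2 called 49, among them Hsp90aa1 and St13. The difference was -1.40 ± 0.33 for Hsp90aa1 (adjusted p = 0.301) and -0.94 ± 0.21 for St13 (adjusted p = 0.299). For Ahsa1 it was 0.10 ± 0.15, for Fkbp4 0.04 ± 0.15 and for Chordc1 -0.01 ± 0.36. Whether the responses are alike cannot be told from these errors.

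Within R6/2 mice, the response to HSP990 exceeded the response to HS for 3 of the 10 genes (1.63% of all genes passed in either direction). The difference of log2 changes was 1.97 ± 0.33 for Hsp90aa1 (adjusted p = 0.00438), 0.84 ± 0.18 for Stip1 (adjusted p = 0.0255) and 0.62 ± 0.15 for Fkbp4 (adjusted p = 0.0497). Hsp90aa1 held without each mouse in turn, Stip1 was lost without either control mouse, HS replicate 1, vehicle replicate 2 or HSP990 replicate 2, and Fkbp4 without any mouse but vehicle replicate 1. None of the 3 passed when the 4 groups were fitted alone. Without HS replicate 2, Chordc1 and Ppid passed, while the share of all genes called went to 3.3%. In wild type mice none of the 10 differed between treatments (2.38% of all genes did), with 1.13 ± 0.34 for Hsp90aa1 (adjusted p = 0.0952), which DESeq2 called (adjusted p = 0.0366), as the 1 member it called. At an unadjusted p below 0.05 there were 2, Hsp90aa1 and St13. In Hsf1-/- mice none passed (0.145% of all genes), none had an unadjusted p below 0.05, and DESeq2 called none. The 2 experiments used separate mice, controls and routes, and in wild type and R6/2 mice they also differed in Y-linked transcripts, so the treatment and the experiment cannot be told apart.

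In Hsf1-/- mice, none of the 10 was called after HS (0.00727% of all genes passed, which is 1 gene) or after HSP990 (0.218%). At an unadjusted p below 0.05 no member passed after HS and 1, Hsp90aa1, after HSP990, and DESeq2 called no member in either. After HS, Hsp90aa1 was at 10.0 and 8.07 CPM, beside 8.20 and 8.65 CPM in control Hsf1-/- mice (0.10 ± 0.25, adjusted p = 0.96). Hsp90ab1 was at 1179.8 and 1026 CPM, beside 1067 and 884 CPM (0.18 ± 0.14, adjusted p = 0.809). Stip1 was at 80.6 and 84.8 CPM, beside 87.4 and 90.2 CPM (-0.10 ± 0.13, adjusted p = 0.903). The groups overlapped for both HSP90 genes, and for Stip1 the heated mice were slightly below. After HSP990, Hsp90aa1 was at 13.0 and 9.46 CPM, beside 6.45 and 7.02 CPM with vehicle (0.74 ± 0.25, adjusted p = 0.336). Hsp90ab1 was at 948 and 1004 CPM, beside 1169 and 1093 CPM (-0.21 ± 0.14, adjusted p = 0.675). The other 8 ranged from -0.13 to 0.17 in log2 fold change after HSP990. The 4 groups of Hsf1-/- mice had summed co-chaperone levels between 647 and 669 CPM in all 8 mice, below the lowest of the wild type mice at 832 CPM.

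Differences between the Hsf1-/- and the wild type response were called for 2 of 10 members after HS (0.16% of all genes) and for 6 of 10 after HSP990 (0.422%). After HS they were -3.79 ± 0.35 for Hsp90aa1 (adjusted p = 5.17e-05) and -1.44 ± 0.19 for Stip1 (adjusted p = 0.00114). After HSP990 they were -4.28 ± 0.36 for Hsp90aa1 (adjusted p = 4.47e-06), -1.26 ± 0.19 for Hsp90ab1 (adjusted p = 0.00352) and -1.61 ± 0.19 for Stip1 (adjusted p = 0.000149). Ahsa1 (-0.95 ± 0.15, adjusted p = 0.00551), Fkbp4 (-0.96 ± 0.15, adjusted p = 0.00465) and St13 (-1.14 ± 0.21, adjusted p = 0.0181) also passed. All 10 differences were negative after both treatments, although those of Cdc37 were -0.0017 ± 0.15 after HS and -0.02 ± 0.15 after HSP990. Chordc1 (-1.30 ± 0.36, adjusted p = 0.254) and Ptges3 (-0.95 ± 0.22, adjusted p = 0.113) did not pass after HSP990. The calls of Hsp90aa1 and Stip1 after both treatments, and of Hsp90ab1 after HSP990, held under each setting tried and with each mouse left out. St13 was lost without Hsf1-/- vehicle replicate 2, Hsf1-/- HSP990 replicate 2, either wild type vehicle mouse or wild type HSP990 replicate 1, and Ahsa1 without Hsf1-/- HSP990 replicate 1 (adjusted p = 0.0559). Hsf1-/- mice were younger than wild type mice in both experiments, and in the HS experiment they also differed in Y-linked transcripts. Age, these transcripts and genotype cannot be told apart.

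**Figure D3:**
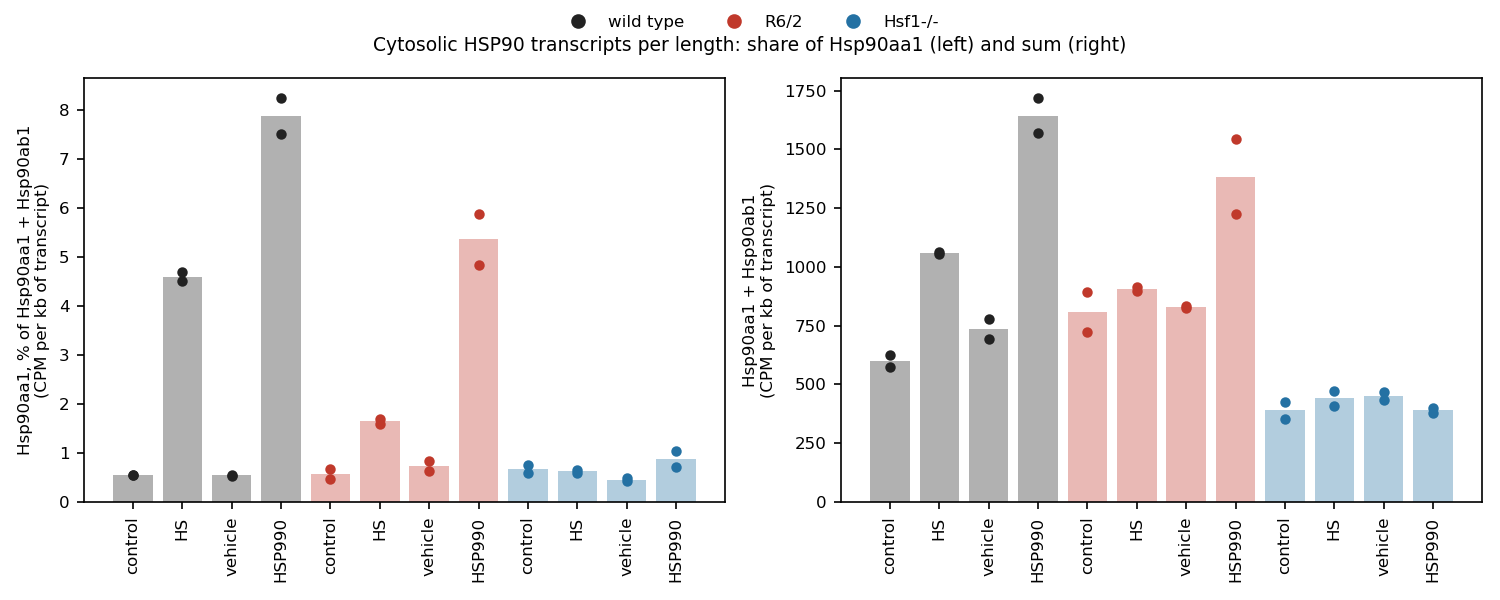
Left, Hsp90aa1 as a percentage of Hsp90aa1 plus Hsp90ab1, both in CPM per kb of transcript. Right, their sum on that scale. Bars are group means and points are the 2 mice of each group. The share rose to 4.59% and 7.87% in treated wild type mice, to 1.64% and 5.36% in treated R6/2 mice and was 0.625% and 0.880% in treated Hsf1-/- mice.

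The balance of the 2 HSP90 genes summarises these responses. In R6/2 mice the share of Hsp90aa1 per length was 0.575% ± 0.144 in control, 1.64% ± 0.08 after HS, 0.734% ± 0.155 with vehicle and 5.36% ± 0.73 with HSP990. In Hsf1-/- mice it was 0.667% ± 0.112, 0.625% ± 0.035, 0.456% ± 0.049 and 0.880% ± 0.229 in the same order (SD, n = 2). Only the means of the treated wild type and R6/2 groups lay above 1%. The summed level of the pair was 390 to 451 CPM per kb in the 4 Hsf1-/- group means and 600.0 CPM per kb or more in the other 8.

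Among control and vehicle mice, the genotypes differed in a few members. In Hsf1-/- against wild type control mice, 3 of the 10 were lower and none was higher (1.93% of all genes passed). Hsf1-/- mice were younger in both experiments, and control Hsf1-/- mice also differed from control wild type mice in Y-linked transcripts. These and genotype cannot be told apart. Ahsa1 was at 85.4 and 86.4 CPM in Hsf1-/- mice and 134 and 138 CPM in wild type mice (-0.66 ± 0.11, adjusted p = 0.00776). Fkbp4 was at 154 and 147 CPM, against 232.9 and 233.1 CPM (-0.63 ± 0.11, adjusted p = 0.0094). Hsp90ab1 was at 1067 and 884 CPM, against 1437 and 1571 CPM (-0.62 ± 0.14, adjusted p = 0.0317). In none of the 3 did the genotypes overlap. With vehicle, Stip1 was the member called, at 87.1 and 81.5 CPM against 139 and 143 CPM (-0.74 ± 0.13, adjusted p = 0.0445, 0.0872% of all genes), while Hsp90ab1 (-0.70 ± 0.14, adjusted p = 0.0768), Ahsa1 (-0.46 ± 0.11, adjusted p = 0.149) and Fkbp4 (-0.38 ± 0.11, adjusted p = 0.271) did not pass. Non-overlapping lower levels in Hsf1-/- mice were seen for 6 members in control and 8 in vehicle mice, where 28.5% and 20.9% of all genes showed them. All 4 calls were lost without any 1 of the 4 mice, and that of Stip1 also in a fit of the 2 groups alone (adjusted p = 0.105).

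In R6/2 against wild type mice, the calls depended on the scaling. With TMM scaling, 2 of 10 members passed in control mice (12.4% of all genes) and 3 of 10 in vehicle mice (19.2%), shares not far above the background. Fkbp4 was lower, at 168 and 163 CPM against 232.9 and 233.1 CPM in control (-0.49 ± 0.11, adjusted p = 0.00736) and at 154 and 138 CPM against 211 and 201 CPM in vehicle mice (-0.49 ± 0.11, adjusted p = 0.00431). Ahsa1 was lower in vehicle mice (-0.34 ± 0.11, adjusted p = 0.0383) and at -0.32 ± 0.11 in control mice (adjusted p = 0.0683), and its call was lost without any 1 of the 4 vehicle mice. St13 was higher in both, at 140.2 and 102 CPM against 85.7 and 85.4 CPM in control (0.50 ± 0.15, adjusted p = 0.036) and at 139 and 119 CPM against 89.6 and 87.2 CPM in vehicle mice (0.55 ± 0.15, adjusted p = 0.0161). When libraries were scaled by their size only, the median over all genes in these contrasts went from 0.01 to 0.55 and from 0.07 to 0.74 on the log2 scale. Under it, Fkbp4 was at 0.05 and 0.18 and Ahsa1 at 0.23 and 0.34, so that their directions were turned, and both lay below the median of all genes. St13 was at 1.05 and 1.22, above the median. Relative to the median of all genes, Fkbp4 and Ahsa1 were low and St13 was high. A change of scaling moves all genes by about the same amount, so finding this under both scalings is no further support. Without R6/2 control replicate 2, Hsp90aa1 and Hsp90ab1 passed as higher in control R6/2 mice. The St13 call was lost without replicate 1 of the R6/2 mice or without either wild type mouse in both experiments, and Fkbp4 lost its call in control mice without replicate 1 of R6/2 (adjusted p = 0.0645) and in vehicle mice without replicate 2 of R6/2 (adjusted p = 0.0536). Muscle fibre markers were lower in all R6/2 mice (above), and their part in these differences was not tested.

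**Figure D4:**
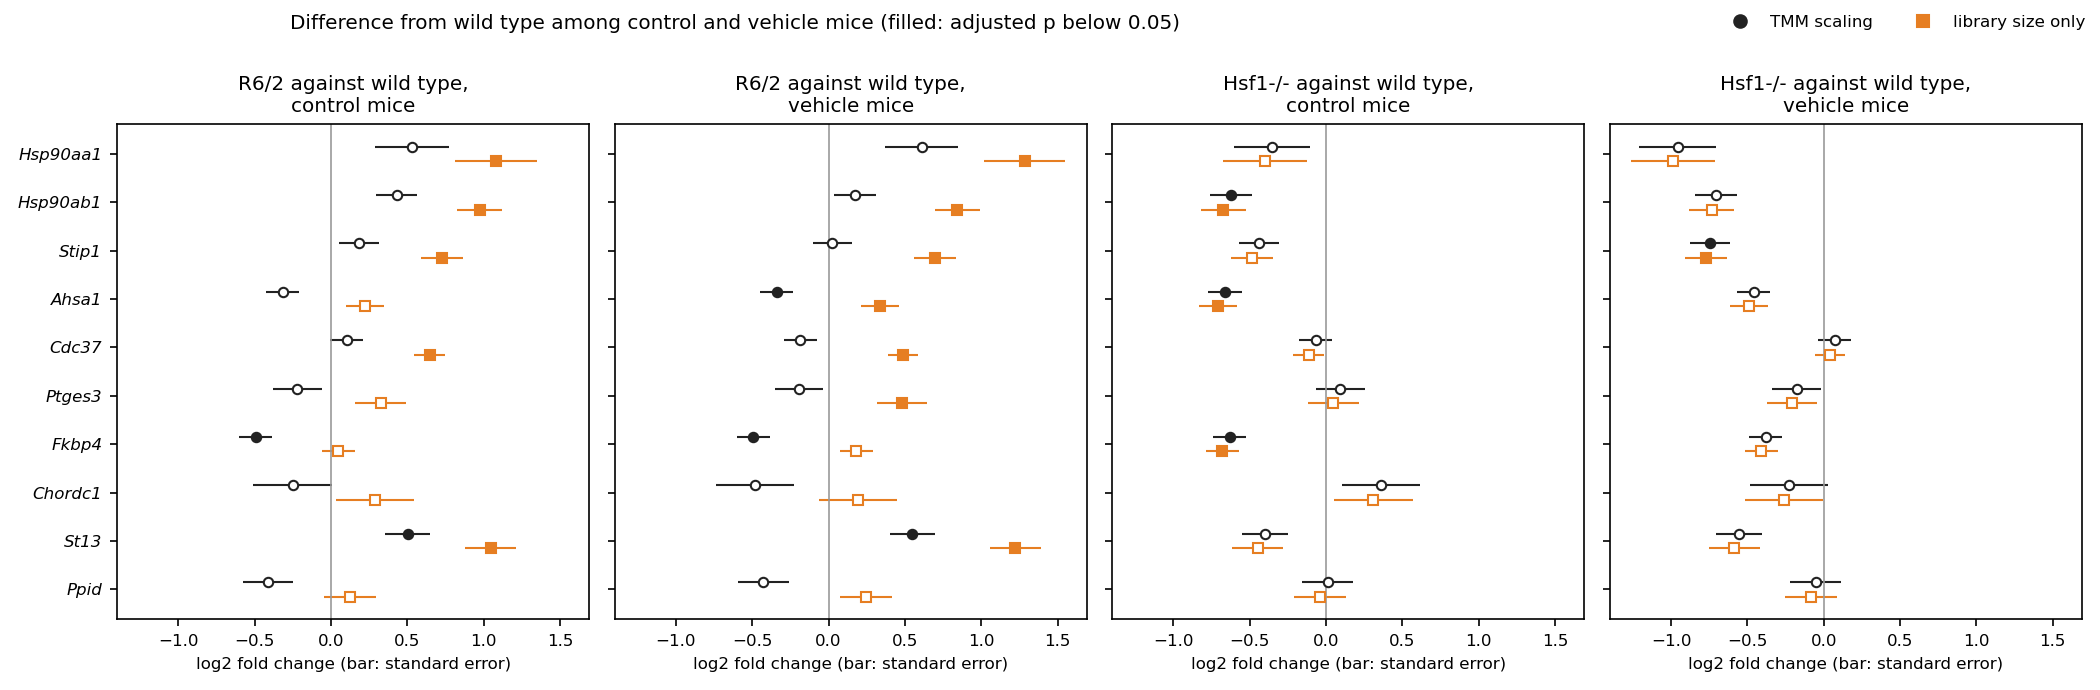
log2 fold change (x axis, bars are standard errors) of the 10 transcripts between R6/2 or Hsf1-/- and wild type mice of the control and vehicle groups, with TMM scaling (circles) and with library size only (squares). Filled symbols have an adjusted p below 0.05. The squares lie right of the circles for all 10 genes in R6/2 mice, and the negative values of Ahsa1, Ptges3, Fkbp4, Chordc1 and Ppid (in vehicle mice also Cdc37) become positive.

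The order of the 12 groups by mean level is given as a description. HSP990-treated wild type mice had the highest mean of all groups for 9 of the 10 genes, and R6/2 control mice had the highest for Cdc37. For Hsp90aa1, HSP990 in wild type (425 CPM), HSP990 in R6/2 (246 CPM), HS in wild type (159.6 CPM) and HS in R6/2 mice (48.8 CPM) followed each other with no overlap between neighbours. Below these, R6/2 vehicle (19.9 CPM), R6/2 control (15.5 CPM), wild type vehicle (13.1 CPM), Hsf1-/- HSP990 (11.2 CPM) and wild type control mice (10.7 CPM) overlapped from one to the next. Of the 11 steps between neighbouring groups, 6 were free of overlap for Hsp90aa1, Hsp90ab1, Ahsa1 and Chordc1, 5 for Stip1, Fkbp4 and St13, 4 for Ptges3, 2 for Ppid and 1 for Cdc37. Such steps were not counted over all genes, so nothing is concluded from these counts. For Ppid the R6/2 groups held the low end, at 33.1 to 42.1 CPM, and the other groups lay at 43.8 to 56.3 CPM. Ppid had no call in any of the 17 comparisons, nor had Cdc37.

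Across the 24 mice, the pattern of Hsp90aa1 was most like those of Dnaja1, a cochaperone of HSP70 (Pearson's r = 0.978 on log2 CPM), Hspa1b and Hspa1a, the inducible HSP70 genes (both 0.973), Hspb1, a small heat shock protein (0.968), and Stip1 (0.968), among 11119 genes compared. That of Hsp90ab1 was most like those of St13 (0.963), Stip1 (0.949), Ahsa2 (0.948), Cct3 (0.936) and Hsph1 (0.936). For Cdc37 the most like gene was Sema6c, at 0.731, and its correlation with the other members lay between -0.211 and 0.106. These values describe mice that share genotype, treatment and library preparation, and they carry no test.

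A wider list of 38 genes of the HSP90 system, of which 36 were tested, was followed in the same way. In wild type mice 4 rose after HS and none fell (11.1% of the 36, beside 2.06% of all genes), with a median log2 fold change of 0.12. They were Hsph1, the HSP110 nucleotide exchange factor of HSP70 (1.74 ± 0.19, adjusted p = 4.99e-05), Unc45b, the myosin chaperone (1.30 ± 0.13, adjusted p = 2.56e-05), Cacybp, which encodes a calcyclin-binding protein (1.29 ± 0.23, adjusted p = 0.00612), and Ahsa2, a relative of Ahsa1 (1.24 ± 0.16, adjusted p = 0.000385). After HSP990, Hsph1 (2.13 ± 0.19), Unc45b (2.07 ± 0.13) and Ahsa2 (1.88 ± 0.16) rose and Fkbp5, an immunophilin gene induced by glucocorticoids, fell (-3.58 ± 0.69, adjusted p = 0.0123), with a median of -0.05 over the list. These 4 were 11.1% of the 36, beside 1.85% of all genes. Unc45b was at 589 and 600.3 CPM with vehicle and at 2454 and 2535 CPM with HSP990, with no overlap. Fkbp5 was at 98.4 and 372 CPM with vehicle and at 22.2 and 17.1 CPM with HSP990, so the 2 vehicle mice were far apart.

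In R6/2 mice none of the 36 passed after HS (1 at an unadjusted p below 0.05, and none by DESeq2), where 0.0436% of all genes passed. After HSP990, Hsph1 (1.60 ± 0.18), Ahsa2 (1.33 ± 0.16) and Unc45b (1.33 ± 0.13) rose and Fkbp5 fell (-3.54 ± 0.69, adjusted p = 0.0131). These 4 were 11.1% of the 36, beside 1.43% of all genes. In Hsf1-/- mice none passed after either treatment (1 and 4 at an unadjusted p below 0.05, and none by DESeq2), with Fkbp5 at -1.23 ± 0.63 after HSP990 (adjusted p = 0.585). Of all genes, 0.00727% passed after HS and 0.218% after HSP990 in these mice. The response of Hsf1-/- mice differed from that of wild type mice for Hsph1, Ahsa2 and Unc45b after both treatments, by -1.92, -1.41 and -1.25 after HS and by -2.08, -1.85 and -2.35 after HSP990. These 3 were 8.33% of the 36 each time, beside 0.16% of all genes for HS and 0.422% for HSP990. For Fkbp5 the difference after HSP990 was 2.35 ± 0.90 and did not pass (adjusted p = 0.579). Most of the list therefore had no call, among them Hsp90b1 and Trap1, the HSP90 genes of the endoplasmic reticulum and of mitochondria.

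**Figure D5:**
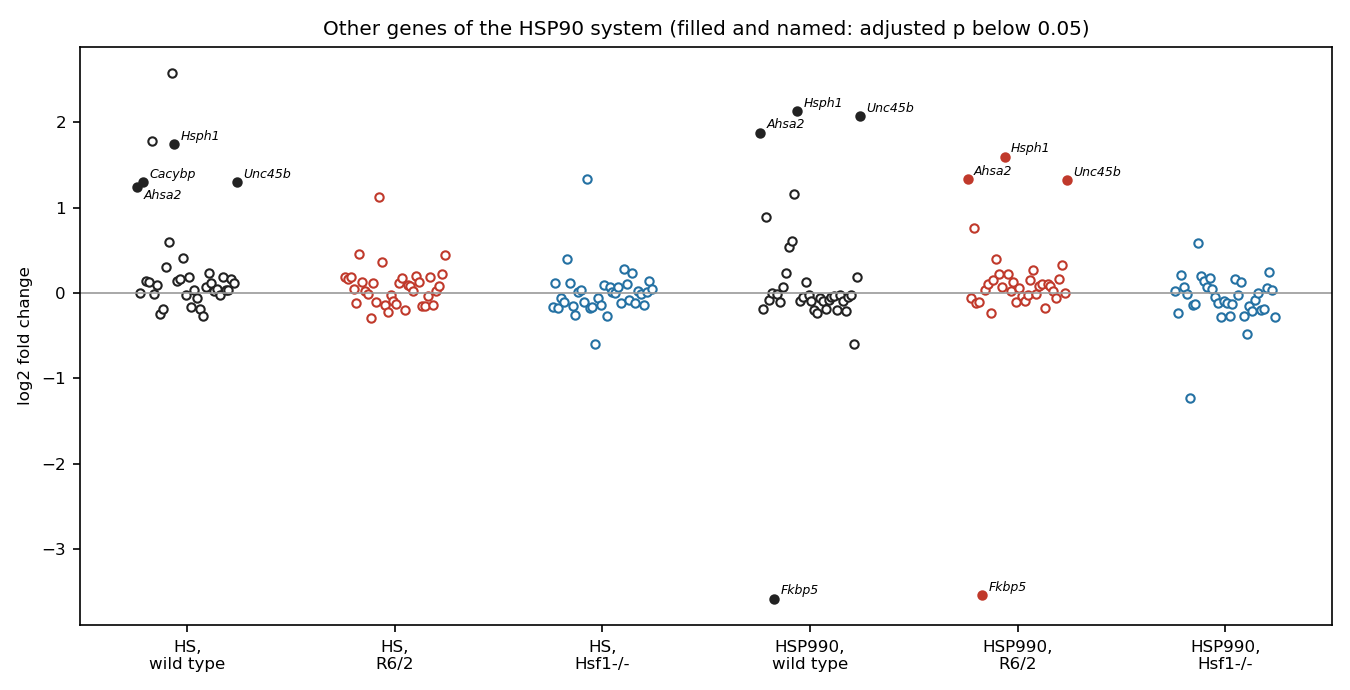
log2 fold change (y axis) of the 36 other genes of the HSP90 system in the 6 treatment comparisons (x axis). Each point is a gene, and filled, named points have an adjusted p below 0.05. After HS 4, 0 and 0 genes passed in wild type, R6/2 and Hsf1-/- mice, and after HSP990 4, 4 and 0. Of all genes, 2.06%, 0.0436% and 0.00727% passed after HS and 1.85%, 1.43% and 0.218% after HSP990.

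Genes that encode HSP90 clients were compared as a further list of 28, of which 27 were tested, including the glucocorticoid receptor Nr3c1, kinases such as Akt1 and Cdk4, and Myh4. None passed by edgeR in any of the 6 treatment comparisons, where 1 to 6 had an unadjusted p below 0.05 and DESeq2 called at most 2. Of all genes, 0.00727% to 2.06% passed in these comparisons, so the absence of calls among the 27 was near that share. Their median log2 fold change lay between -0.03 and 0.08. In R6/2 against wild type mice with TMM scaling, 6 passed in control and 6 in vehicle mice (22.2% of the 27 in each, beside 12.4% and 19.2% of all genes), so the share in vehicle mice was near that of all genes. Among them were the fast myosin heavy chain gene Myh4 (-1.91 ± 0.34 and -2.31 ± 0.35) and the kinase gene Akt2 (0.81 ± 0.13 and 0.68 ± 0.13).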

How the data were processed

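Libraries were strand-specific, paired-end polyA RNA-seq of quadriceps femoris muscle. Reads were mapped to mm9 with Bowtie, and the authors deposited raw counts per gene, keyed by Entrez identifier. The counting program and annotation are not given in the sources used here. The counts were used as deposited, with symbols for 18594 of 18669 identifiers.

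The filter of the study was applied, which asks for 2 or more counts in 10 or more of the 24 libraries and kept 13754 genes. The main test was the quasi-likelihood F test of edgeR 4.0.16 (R 4.3.3) on the 12 groups with TMM scaling, with Benjamini-Hochberg adjustment within each of 17 contrasts and a threshold of 0.05. The study's own tool, DESeq2 1.42.0, served as an alternative, because the quasi-likelihood test was preset for counts. CPM were computed with TMM factors, and levels per kb with the length of the main transcript of each gene. Interactions are differences of log2 fold changes. The fit was tested on simulated data. Copies of transcripts were sought in mm9 with minimap2 2.31-r1302, and promoter sequences came from RefSeq (GRCm38.p6).

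The members, the gene lists and the tests were chosen with earlier results of these data known. Named are the 10 members in every comparison and, of the wider list, up to 5 called genes with the largest change, except 1 gene that is not reported here. The 2 replicates of a group were separate mice, and replicate numbers were taken from the labels. Residual degrees of freedom were 12. Alternatives were other scalings, filters, libraries in the fit, DESeq2, a replicate block and leaving out each mouse.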

Additional observations from a re-analysis of the deposited data

Results flagged for a closer look

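These results were picked out because the response to 1 treatment differed between genotypes by the interaction test of edgeR (adjusted p below 0.05), with values given as differences of log2 fold changes, all of them lower than in wild type mice. After HS, Hsp90aa1 differed by -2.24 in R6/2 mice and by -3.79 in Hsf1-/- mice, and Stip1 by -1.44 in Hsf1-/- mice. After HSP990, all 6 results were in Hsf1-/- mice, and they were Hsp90aa1 at -4.28, Stip1 at -1.61, Hsp90ab1 at -1.26, St13 at -1.14, Fkbp4 at -0.96 and Ahsa1 at -0.95. The genes span both HSP90 paralogs, the HSP70 adaptors, the ATPase activator and an immunophilin. Cdc37, Ppid, Ptges3 and Chordc1 gave no such result. In R6/2 mice no such result was found after HSP990. The Hsf1-/- mice were younger than the wild type mice, and in the HS experiment they also differed in Y-linked transcripts. Age, these transcripts and genotype cannot be told apart.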

How the results depend on the processing

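Of 170 pairs of a member and a comparison, 43 were called in the main analysis, 27 more were called in an alternative only and 100 never. Of the 43, 15 kept direction and call under all 8 alternative settings and with each mouse left out, 23 under the 8 settings and 20 with each mouse left out. With library size only, R6/2 against wild type values called in either analysis reversed for Fkbp4 in control (0.0474) and for Fkbp4 (0.18), Ahsa1 (0.335), Cdc37 (0.49) and Ptges3 (0.48) in vehicle mice. Values called in neither also changed sign, for Ahsa1 (0.23), Ptges3 (0.33), Chordc1 (0.29) and Ppid (0.13) in control and Chordc1 (0.20) and Ppid (0.25) in vehicle mice, as all genes shifted upward by the medians given in the report. Under this scaling the members called went to 5 in control and 7 in vehicle mice, beside 43.7% and 55.6% of all genes, to 0 for HS in R6/2 mice and to 5 for HS in wild type mice, where Fkbp4 (adjusted p = 0.0848) and St13 (adjusted p = 0.087) were lost. With only the groups compared in the fit, which leaves fewer samples, members called went to 0 for HS in R6/2 mice, 1 for HSP990 in R6/2 mice, 0 for R6/2 against wild type control mice, 0 for Hsf1-/- against wild type vehicle mice, 0 and 3 for the HS response of R6/2 and the HSP990 response of Hsf1-/- against wild type mice, and 1 and 0 for HSP990 against HS in wild type and R6/2 mice. Of all genes, 0.0727%, 0.0582%, 3.58%, 0.0727%, 0%, 0.174%, 4.33% and 0.167% passed in these fits, in the same order. With DESeq2 the members called went from 7 to 8 for HS in wild type mice (Chordc1), from 6 to 7 for HSP990 in R6/2 mice and from 6 to 7 for the HSP990 response of Hsf1-/- against wild type mice (Ptges3 in both), to 4 for R6/2 against wild type control mice, 4 for Hsf1-/- against wild type vehicle mice, 2 for the HS and 2 for the HSP990 response of R6/2 against wild type mice, and 1 and 5 for HSP990 against HS in wild type and R6/2 mice. The DESeq2 shares of all genes are not set beside these counts, so nothing is concluded from them about the members. The remaining counts of members moved by at most 1. The cause of these differences was not tested. Deviations of mice with the same replicate number showed no general correlation (66 pairs of groups, -0.385 to 0.393, median -0.021, 12 above 0.1). This cannot exclude a pairing between some of the groups. With a replicate block the count for Hsf1-/- against wild type vehicle mice went to 0, as Stip1 moved to -0.74 (adjusted p = 0.0617), with no other call of a member changed.

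With each mouse left out, members called were 2 to 4 for HS and 7 to 8 for HSP990 in wild type mice, 0 to 3 for HS and 4 to 6 for HSP990 in R6/2 mice, and 0 in Hsf1-/- mice. They were 0 to 4 in control and 1 in vehicle mice for R6/2 against wild type, 0 in both for Hsf1-/- against wild type, 0 to 3 for the HS response of R6/2 mice, 2 and 5 to 6 for the HS and HSP990 responses of Hsf1-/- mice, and 1 to 4 for HSP990 against HS in R6/2 mice. A lone mouse is then assumed to vary like the other groups. The calls over all genes moved in these fits as well, so the changed counts are not a result about the members alone.

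Over all genes, the counts called moved by more than 1.5 times in most comparisons. Between the alternatives they ran from 280 to 598 for HS in wild type mice (main count 283), 158 to 542 for HSP990 in wild type mice (255), 3 to 127 for HS in R6/2 mice (6) and 8 to 376 for HSP990 in R6/2 mice (197). With each mouse left out they ran from 40 to 123, 59 to 168, 3 to 500 and 50 to 228 in the same order, and the 500 were without R6/2 HS replicate 2.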

Other observations

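Genes of the wider HSP90 list also differed between genotypes among control and vehicle mice. In R6/2 against wild type control mice 1 of 36 was higher and 7 were lower, and in vehicle mice 1 was higher and 8 were lower, where 5.5% and 8.72% of all genes were higher and 6.94% and 10.5% were lower. Tomm34, a co-chaperone of mitochondrial import, was the higher one (0.63 ± 0.17 and 0.54 ± 0.17). The lower ones included the muscle genes Itgb1bp2, which encodes melusin (-0.76 ± 0.16 and -1.48 ± 0.16), Smyd2, a lysine methyltransferase of muscle (-0.82 ± 0.15 and -1.09 ± 0.15), Smyd1 (-0.57 ± 0.16 and -0.61 ± 0.16) and the myosin chaperone gene Unc45b (-0.50 ± 0.13 and -0.73 ± 0.13). These values rest on TMM scaling. With library size only, the median over all genes in these contrasts was higher (above), and the values of these genes under it are not given here. Summed muscle fibre markers were lower in the same R6/2 mice, and their part was not tested.

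In Hsf1-/- against wild type mice, Hsph1 was lower in control (-0.93 ± 0.18, adjusted p = 0.0203) and vehicle mice (-1.45 ± 0.19, adjusted p = 0.00171 by edgeR). In control mice 4 of 36 genes were lower, where 1.17% of all genes were, and Ruvbl2 (-0.65 ± 0.14) and Ahsa2 (-0.63 ± 0.16) were among them. Hsph1 was at 53.9 and 65.4 CPM in control and 53.3 and 62.8 CPM in vehicle Hsf1-/- mice, and at 114 and 113 CPM and 157 and 159 CPM in the wild type mice, with no overlap. The Hsf1-/- mice were younger, and those of the control group also differed in Y-linked transcripts, so these and genotype cannot be told apart.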
